A study of Mus musculus with 8 samples.

Results

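Transcripts of 8 Notch pathway genes were compared in myeloid cells of sanroque mice, namely the receptors Notch1 and Notch2, the protease Adam10, the nuclear factors Rbpj and Maml1, and Dtx1, Hes1 and Nrarp, which are known as genes that Notch signals switch on. The 8 genes were taken by symbol from a table of 54188 genes, and each symbol matched 1 row. The cells were CD11b+Gr-1hi and CD11b+Gr-1lo cells sorted from spleen (SP) and BM, with 2 RNA-seq libraries in each of the 4 groups, and the library numbers used here are those of the labels: 5 and 6 are SP Gr-1hi, 7 and 8 SP Gr-1lo, 9 and 10 BM Gr-1hi, and 11 and 12 BM Gr-1lo. All groups came from Roquin san/san homozygotes on C57BL/6, labelled female and 20 weeks of age, and none was treated. The mutation is shared by every group, so no wild-type level is part of these comparisons. The labels call the Gr-1hi cells G-MDSC, the granulocytic class of suppressor cell, and each group is a sorted population, whose purity the counts can only reflect through marker genes. The study describes the replicates as independent, but the labels do not tie libraries to single mice, so the p values measure the spread between these libraries.

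Notch receptors are cell surface proteins that are cut when a ligand of the Delta or Jagged family on a neighbouring cell binds them, first by ADAM10 outside the membrane and then by gamma-secretase within it. The freed intracellular part enters the nucleus, joins the DNA-binding protein RBPJ and recruits a Mastermind coactivator such as MAML1, and genes including Hes1, Nrarp and Dtx1 are then transcribed. In the spleen the pathway is best known for NOTCH2, which marginal zone B cells and a class of dendritic cells depend on.

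Libraries held 33453580 to 68316154 counts, and 3 counts, taken as the floor of detection, correspond to 0.0348 to 0.124 counts scaled to a common library size (TMM-normalized CPM, the unit used below), and to 0.112 and 0.124 CPM in the BM Gr-1hi libraries. The sorted subsets matched the antigens of the sort. Ly6g, the antigen that Gr-1 antibodies bind most strongly, lay at 330.0 to 801 CPM in the Gr-1hi libraries and at 3.07 to 8.23 CPM in the Gr-1lo libraries, and Itgam (CD11b) was present in all 8. RNA of Csf1r was higher in the Gr-1lo cells of each tissue, whereas the study reports its protein, CD115, as high on SP Gr-1hi and low on SP Gr-1lo cells. The label of sex was not borne out in 7 of the 8 libraries. Xist, which is transcribed from the inactive X chromosome of female cells, was counted 12032 times in library 5 and 9898 times in library 7, and 0 to 5 times elsewhere, whereas the Y-linked Ddx3y had 0 counts in library 5 and 33.7 to 82.6 CPM in the other 7 libraries, library 7 included. Both libraries with Xist were from SP, and results are therefore also given without libraries 5 and 7.

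Of the 8 genes, Dtx1, Hes1 and Nrarp were higher in SP than in BM in both subsets, at adjusted p of at most 0.05 and FC of at least 2, and the receptors, the protease and the nuclear factors did not pass that rule in either subset. By the same rule 15.5% of all 17650 genes tested were called between SP and BM Gr-1hi cells (14.0% higher in SP), and 4.06% between SP and BM Gr-1lo cells (3.84% higher in SP). The count of 3 of 8 is given as a description, because these 3 genes passed the filter on low counts through their SP libraries only, with 0 of the 4 BM libraries over its cutoff, and so had to differ. Between the subsets the order was another one: 6 of 8 members were higher in Gr-1hi than in Gr-1lo cells of BM, where 57.3% of all genes were called (24.2% higher and 33.1% lower), and 4 of 8 in SP, where 49.6% were called (22.3% higher and 27.4% lower). The count of 6 in BM includes Dtx1, Hes1 and Nrarp, with 2 to 12 pooled counts a BM group, and it was 3 without library 11 and 2 by limma on quantile-normalized TPM. At the stricter rule for the subsets (adjusted p below 0.01 and FC above 8) edgeR called 0 members in BM, against 16.7% of all genes, and 0 in SP, against 7.37%. At an unadjusted p under 0.05, 7 and 6 members differed between the subsets of BM and SP, as did 77.4% and 73.7% of all genes. With an adjusted p of at most 0.05 at any FC, the members numbered 6 between SP and BM Gr-1hi cells (34.0% of all genes), 3 between SP and BM Gr-1lo cells (5.58%), 7 between the BM subsets (75.7%), 6 between the SP subsets (71.4%) and 1 for the difference between those differences (16.4%).

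**Figure D1:**
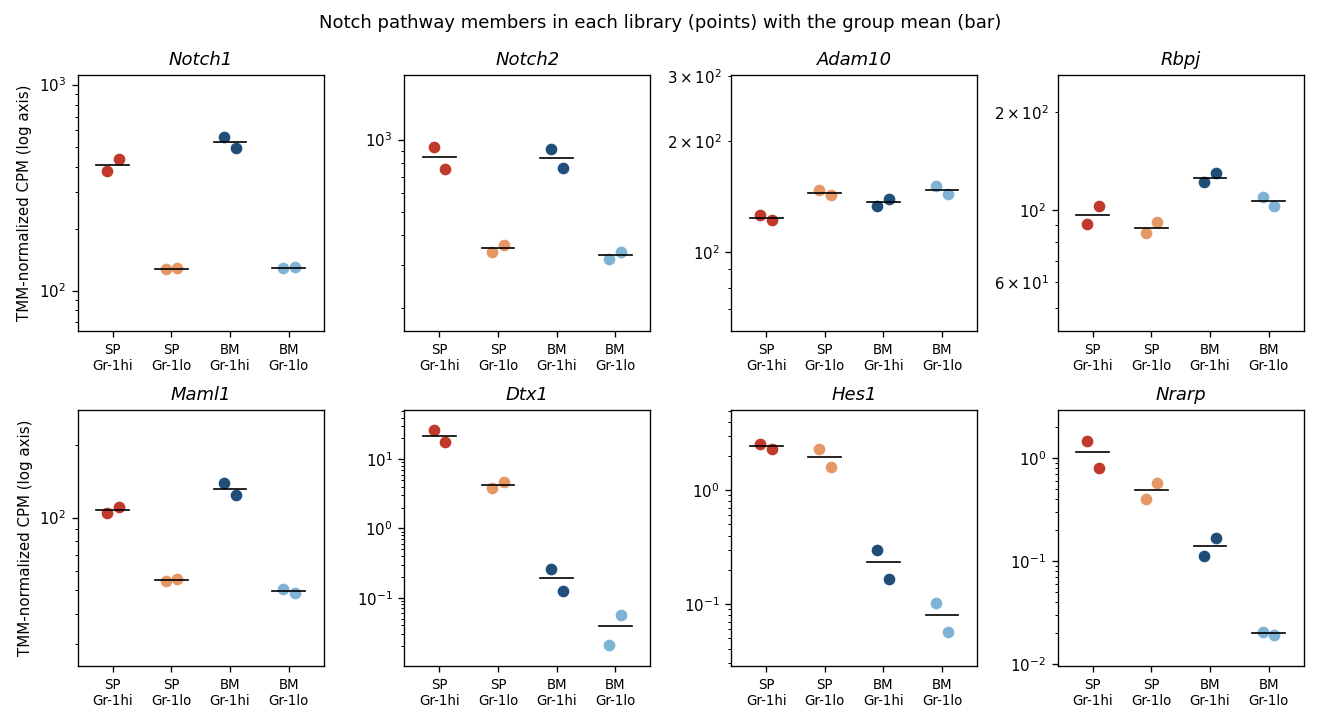
Each panel plots 1 gene, with TMM-normalized CPM on a log axis against the 4 groups, points for single libraries and a bar for the mean of 2. Notch1, Notch2 and Maml1 separate by subset (for Notch1, 381 CPM or more in Gr-1hi libraries and 129.6 CPM or less in Gr-1lo libraries), and Dtx1, Hes1 and Nrarp separate by tissue.

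The gene Notch1 lies on chr2:26457903-26516663 of GRCm38, on the minus strand. It was measured at 381 and 435 CPM in the SP Gr-1hi libraries, 127 and 128 CPM in SP Gr-1lo, 558 and 492 CPM in BM Gr-1hi, and 129 and 129.6 CPM in BM Gr-1lo. Its level thus followed the subset, and the Gr-1hi and Gr-1lo libraries did not overlap in either tissue. The log2 excess of Gr-1hi over Gr-1lo cells was 2.02 in BM (SE 0.10, adjusted p = 4.30e-07) and 1.68 in SP (adjusted p = 2.13e-06). In SP Gr-1hi cells it lay below BM Gr-1hi cells by a log2 value of 0.36 (SE 0.10, adjusted p = 0.0213), a difference under the 2-fold rule whose adjusted p was 0.193 without libraries 5 and 7 (0.000911 to 0.193 over 15 alternatives). Between SP and BM Gr-1lo cells the log2 difference was -0.02 (SE 0.10, adjusted p = 0.934), and these are neighbours in the order of levels that did not differ beyond their spread. The annotation sets 2 antisense genes against its exons, with 0 to 23 counts a library each.

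Notch2, on the plus strand of chr3:98013527-98150361, had 929 and 756 CPM in SP Gr-1hi, 339.9 and 366 CPM in SP Gr-1lo, 910.1 and 759 CPM in BM Gr-1hi, and 319 and 341 CPM in BM Gr-1lo libraries. The SP and BM libraries of the same subset overlapped, and the Gr-1hi and Gr-1lo libraries did not. Gr-1hi cells exceeded Gr-1lo cells on the log2 scale by 1.34 in BM (SE 0.13, adjusted p = 1.72e-05) and by 1.26 in SP (SE 0.13, adjusted p = 3.55e-05). Between tissues Notch2 differed by 0.01 (SE 0.13, adjusted p = 0.946) in Gr-1hi cells and 0.10 (SE 0.13, adjusted p = 0.724) in Gr-1lo cells on the log2 scale. Notch2 shares 541 exon bases with Gm42820, an unconfirmed transcript of the same strand with 914 to 2151 counts a library, so some of its reads may be counted there or left out. Per transcript length, the only scale on which genes are set against each other here, Notch2 had the highest mean of the 8 in each group. It had 157.7 ± 31.8 TPM (length-scaled transcript shares; SD, n = 2) in SP Gr-1hi and 129.9 ± 21.2 TPM in BM Gr-1hi cells, against 57.4 ± 2.13 and 61.9 ± 7.69 TPM of Notch1. In Gr-1lo cells Adam10 was close, at 87.1 ± 4.42 against 96.5 ± 2.15 TPM of Notch2 in SP and 92.4 ± 4.55 against 94.2 ± 3.16 TPM in BM. In library 11 Adam10 was the higher (95.6 against 91.9 TPM).

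Adam10 (chr9:70678997-70780229, plus strand) encodes the metalloprotease that makes the ligand-dependent cut, and it cuts many other surface proteins too. Its levels were 126 and 122 CPM in SP Gr-1hi, 147 and 143 CPM in SP Gr-1lo, 133 and 139 CPM in BM Gr-1hi, and 151 and 144 CPM in BM Gr-1lo libraries. The whole range over 8 libraries was narrow in CPM. On that scale Adam10 was the only member with lower means in Gr-1hi than in Gr-1lo cells of both tissues. In TPM, Gr-1hi against Gr-1lo, its means were further apart, at 50.7 against 87.1 in SP and 46.4 against 92.4 in BM. Mean TPM of Rbpj were also lower in Gr-1hi cells, at 15.2 against 20.4 in SP and 16.5 against 25.7 in BM. The log2 difference of Adam10 between the subsets was -0.23 (adjusted p = 0.0296) in SP and -0.11 (adjusted p = 0.216) in BM, both under the 2-fold rule. Over 15 alternatives it ran from -0.46 to -0.09 in SP and from -0.48 to 0.04 in BM. The value of 0.04 came when libraries were scaled by the median ratio of DESeq2 (RLE). SP and BM differed by -0.14 (adjusted p = 0.215) in Gr-1hi and -0.02 (adjusted p = 0.898) in Gr-1lo cells. In order of level, no neighbouring groups of Adam10 differed at an adjusted p of 0.05.

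Rbpj (chr5:53466152-53657362, plus strand), the factor that carries the Notch signal to DNA and represses its targets when no signal is present, was read at 90.5 and 103 CPM in SP Gr-1hi, 84.9 and 91.7 CPM in SP Gr-1lo, 122 and 130.0 CPM in BM Gr-1hi, and 110.0 and 103 CPM in BM Gr-1lo libraries. The BM Gr-1hi libraries were the highest, and the libraries of SP Gr-1hi, SP Gr-1lo and BM Gr-1lo cells overlapped in part. SP Gr-1hi cells lay below BM Gr-1hi cells by a log2 value of 0.38 (adjusted p = 0.0187), which had an adjusted p of 0.144 without libraries 5 and 7 (0.000335 to 0.144 over 15 alternatives), and SP Gr-1lo cells differed from BM Gr-1lo cells by -0.27 (adjusted p = 0.173). The subsets differed by 0.24 in BM (adjusted p = 0.0487) and 0.13 in SP (adjusted p = 0.247). None of these reached 2-fold.

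Maml1 (chr11:50255634-50292311, minus strand), a coactivator of the RBPJ complex, followed the subset as the receptors did. It was at 105 and 111 CPM in SP Gr-1hi, 54.9 and 55.6 CPM in SP Gr-1lo, 139.5 and 124 CPM in BM Gr-1hi, and 50.6 and 48.7 CPM in BM Gr-1lo libraries, with no overlap between subsets. In BM, Gr-1hi cells were above Gr-1lo cells by 1.41 on the log2 scale (SE 0.09, adjusted p = 1.50e-06). In SP the log2 difference was 0.97 (SE 0.09, adjusted p = 1.91e-05), just under 2-fold, and it was over 2-fold with RLE scaling (1.10), upper-quartile scaling (1.05) and DESeq2 (1.06). The difference between subsets was smaller in SP than in BM by a log2 value of 0.44 (SE 0.13, adjusted p = 0.0472), which had an adjusted p of 0.225 without libraries 5 and 7 (0.0179 to 0.225 over 14 alternatives). Between tissues Maml1 differed by -0.29 (adjusted p = 0.0372, and 0.00518 to 0.236 over 15 alternatives, the highest without libraries 5 and 7) in Gr-1hi and 0.16 (adjusted p = 0.378) in Gr-1lo cells.

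The genes known as targets were far less abundant. Dtx1 (Deltex, chr5:120680202-120711927, minus strand) encodes a ubiquitin ligase that acts on Notch receptors. Dtx1 was counted 866 and 548 times in SP Gr-1hi, 184 and 399 times in SP Gr-1lo, 7 and 3 times in BM Gr-1hi, and 1 and 3 times in BM Gr-1lo libraries. As CPM these were 26.1 and 17.5, 3.88 and 4.62, 0.262 and 0.124, and 0.0205 and 0.0567. Every SP library was thus above every BM library, and the BM Gr-1lo libraries were at or under the floor of 3 counts. The log2 FC of SP over BM was 6.78 (SE 0.37, adjusted p = 7.78e-05) in Gr-1hi cells and 6.66 (SE 0.44, adjusted p = 0.000387) in Gr-1lo cells. In pooled counts the ratio of SP to BM was 112 in Gr-1hi cells (95% exact interval 60.6 to 233) and 111 in Gr-1lo cells (43.1 to 408), an interval that covers counting error only. These are bulk samples, in which fewer cells of a type and less RNA per cell cannot be told apart.

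Dtx1 also differed between subsets. It was higher in Gr-1hi than in Gr-1lo cells of SP by a log2 FC of 2.35 (SE 0.24, adjusted p = 3.31e-05), and all 15 alternatives gave that call. In BM the log2 FC was 2.24 (SE 0.81, adjusted p = 0.0323), from 10 counts against 4, and without library 9 or library 11, or by limma, it was not called (log2 FC 1.65, 1.71 and 0.13, adjusted p = 0.247, 0.126 and 0.536, with a range over 14 alternatives of 0.0135 to 0.536). The difference of subsets in SP minus that in BM was 0.11 on the log2 scale by edgeR (adjusted p = 0.987), resting on 10 and 4 counts in BM, and 2.01 by limma on quantile-normalized TPM (adjusted p = 0.0234, with 0.0234 to 1.0 over 14 alternatives).

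Hes1 (chr16:30064384-30067796, plus strand), a transcriptional repressor of the basic helix-loop-helix class, had 85 and 73 counts in SP Gr-1hi, 110 and 138 in SP Gr-1lo, 8 and 4 in BM Gr-1hi, and 5 and 3 in BM Gr-1lo libraries. These are 2.56 and 2.33 CPM, 2.32 and 1.599 CPM, 0.299 and 0.165 CPM, and 0.102 and 0.0567 CPM. All SP libraries were above all BM libraries. The log2 FC of SP over BM was 3.37 for Gr-1hi cells (SE 0.42, adjusted p = 0.000886) and 4.58 for Gr-1lo cells (SE 0.44, adjusted p = 0.000746), and the pooled counts gave ratios of 10.4 (5.79 to 20.6) and 23.6 (11.8 to 55.3). Unlike Dtx1, Hes1 was not called between the subsets of SP (log2 0.33, SE 0.31, adjusted p = 0.360). In BM the subsets differed by 1.54 (SE 0.60, adjusted p = 0.0417), a call that was lost without library 9, 11 or 12, without libraries 5 and 7, without the filter, and by DESeq2 and limma (adjusted p 0.0304 to 0.278 over 14 alternatives).

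Nrarp (chr2:25180758-25183339, plus strand, 1 exon) encodes a small ankyrin-repeat protein that binds the Notch complex and dampens it. It was counted 49 and 25 times in SP Gr-1hi, 19 and 49 times in SP Gr-1lo, 3 and 4 times in BM Gr-1hi, and 1 time in each BM Gr-1lo library. The CPM were 1.48 and 0.797, 0.401 and 0.568, 0.112 and 0.165, and 0.0205 and 0.0189, in that order. The groups did not overlap. The order of mean CPM from SP Gr-1hi through SP Gr-1lo and BM Gr-1hi to BM Gr-1lo was the same as for Dtx1 and Hes1. For Hes1 the SP subsets did not differ beyond their spread (log2 0.33, SE 0.31). Its mean TPM was higher in SP Gr-1lo (2.85) than in SP Gr-1hi cells (2.42). Nrarp in Gr-1hi cells was higher in SP than in BM by a log2 FC of 3.02 (SE 0.54, adjusted p = 0.00442), and the pooled counts gave a ratio of 8.35 (3.86 to 21.5). In Gr-1lo cells the log2 FC was 4.46 (SE 0.68, adjusted p = 0.00665) with a ratio of 25.9 from 68 against 2 counts (6.89 to 218), and the call was lost without library 11 (4.51, adjusted p = 0.0558) or library 12 (4.40, adjusted p = 0.0680), with adjusted p from 9.29e-07 to 0.0680 over 14 alternatives. Between subsets Nrarp was higher in Gr-1hi cells by log2 values of 1.21 in SP (SE 0.40, adjusted p = 0.0249) and 2.64 in BM (SE 0.92, adjusted p = 0.0273). The call in SP was lost without library 5 (0.67), 7 (0.98), 8 (1.48) or both 5 and 7 (0.47), with no filter (1.07) and by DESeq2 (adjusted p = 0.0872, 0.012 to 0.531 over 14 alternatives), and the call in BM without library 10 (2.44), 11 (2.66) or 12 (2.56).

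Without libraries 5 and 7 all 6 of these SP against BM calls held. The log2 FC were then 6.47 for Dtx1, 3.31 for Hes1 and 2.53 for Nrarp in Gr-1hi cells (adjusted p = 6.05e-05, 0.00445 and 0.0396), and 6.77, 4.29 and 4.66 in Gr-1lo cells (adjusted p = 0.000147, 0.00218 and 0.0105). Because Dtx1, Hes1 and Nrarp passed the filter on low counts through SP libraries only, the calls that held are a description. Between Gr-1hi cells and Gr-1lo cells, the SP against BM difference of no member differed at the 2-fold rule, against 9.74% of all genes. That count of 0 of 8 by edgeR was 0 by DESeq2 and 1 by limma on quantile-normalized TPM (Dtx1), and 2 members, Notch1 and Maml1, had an unadjusted p under 0.05, as did 32.3% of all genes.

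**Figure D2:**
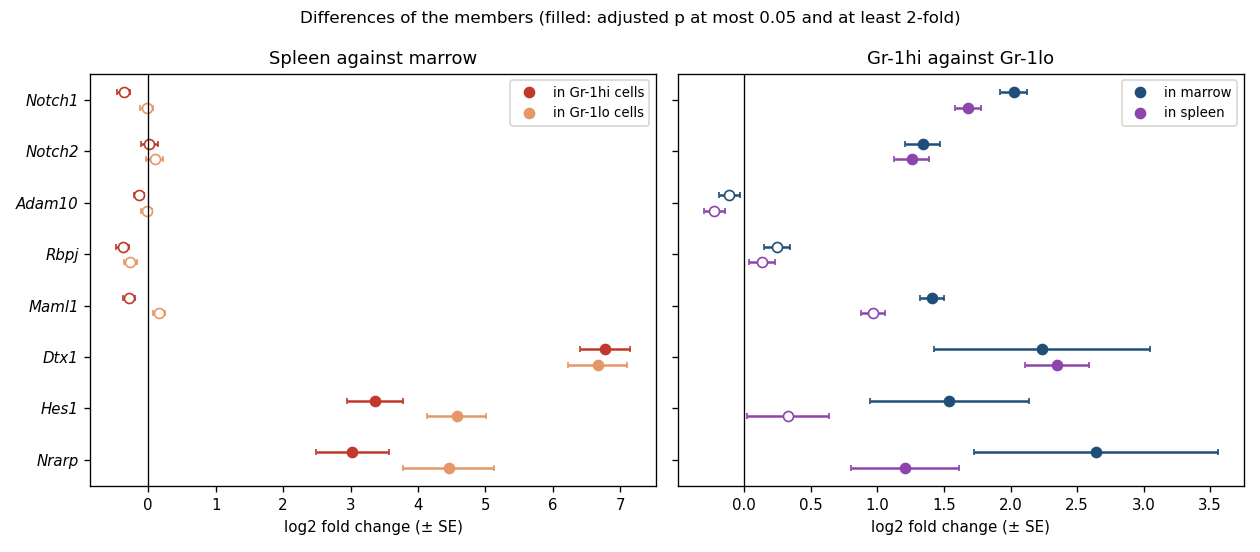
Log2 FC of the 8 genes (x axis, with SE bars) for SP against BM on the left and Gr-1hi against Gr-1lo on the right, filled where called. Notch1, Notch2, Adam10, Rbpj and Maml1 lie between -0.38 and 0.16 on the left, and Dtx1, Hes1 and Nrarp lie at 3.02 or more.

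RBPJ binds the sequence GTGGGAA, and the 250 bases before the RefSeq start site of each gene (assembly GRCm38.p6) were searched for it on both strands. Such windows were at hand for 7 of the 8 members, 8 windows in all. Hes1 was not searched. The motif was in 0 of the 8 windows, as against 5.42% of 32851 windows of all genes. No match says only that these letters are not in those windows. The window of Nrarp is printed because, of Dtx1 and Nrarp, only that of Nrarp lies outside annotated exons (chr2:25180508-25180757, plus strand, GRCm38.p6).

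Nrarp: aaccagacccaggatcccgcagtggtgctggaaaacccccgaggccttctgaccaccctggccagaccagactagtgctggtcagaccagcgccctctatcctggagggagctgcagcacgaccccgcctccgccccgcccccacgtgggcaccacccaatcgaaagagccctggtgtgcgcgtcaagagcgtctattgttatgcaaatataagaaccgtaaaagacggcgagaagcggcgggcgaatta

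Of the other pathway genes listed below, 5 of the 35 with a window held it, namely Lfng, Psen2, Spen, Hes5 and Hey2. For comparison, 3 of those matches are printed 5′ to 3′ on the strand of the gene with the motif or its complement in capitals. They are from Hes5, the textbook RBPJ target, at 226 and 83 bases before the start (chr4:154960686-154960714 and chr4:154960829-154960857, plus strand), and from Lfng, at 109 bases (chr5:140607221-140607249, plus strand).
Hes5 distal: gggcgagcgcgTTCCCACagcccggacat
Hes5 proximal: ggccgccgagtGTGGGAAcggccgcggcg
Lfng: ccgtatcccacGTGGGAAggagagatctc
Of these genes, Hes5 had 0 to 5 counts a library, and Lfng had group means of 26.1 CPM (BM Gr-1lo) to 127.6 CPM (SP Gr-1hi).

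Summed transcripts of B cells and of T cells were higher in SP than in BM too. Summed over 10 B cell genes, CPM were 492 and 337 in SP Gr-1hi, 61.9 and 80.9 in SP Gr-1lo, 20.9 and 17.7 in BM Gr-1hi, and 8.36 and 10.3 in BM Gr-1lo libraries. Of the 10 genes, 10 were called higher in SP Gr-1hi than in BM Gr-1hi cells (14.0% of all genes) and 9 in Gr-1lo cells (3.84%). Cd22 was the most abundant of them, and none of the 10 was at 0 in any library, with Fcer2a and Blk the nearest to it in BM Gr-1lo (0.0189 to 0.0819 CPM). Summed over 9 T cell genes, CPM were 83.0 to 135 in SP Gr-1hi, 28.1 to 42.2 in SP Gr-1lo, 7.02 to 10.6 in BM Gr-1hi and 2.03 to 2.21 in BM Gr-1lo libraries, with 8 of 9 and 9 of 9 called higher in SP, against the same 14.0% and 3.84% of all genes. Their part in the differences of Dtx1, Hes1 and Nrarp was not tested.

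The 3 genes did not stand in the same ratio to the B cell genes. Per 1000 CPM of the B cell list, Dtx1 was at 53.1 and 51.8 CPM in SP Gr-1hi, 62.7 and 57.2 in SP Gr-1lo, 12.5 and 6.99 in BM Gr-1hi, and 2.45 and 5.51 in BM Gr-1lo libraries. Dtx1 was thus in a narrow range over the 4 SP libraries and lower in all BM libraries. Hes1 was at 5.21 and 6.90, 37.5 and 19.8, 14.3 and 9.32, and 12.3 and 5.51 CPM on the same scale, highest in SP Gr-1lo cells. Nrarp was between 1.83 and 9.32 CPM in all 8 libraries, with SP (2.36 to 7.02) inside the range of BM. The low end of that range, in BM Gr-1lo, rests on 1 Nrarp count a library. In those libraries most of the B cell sum was Cd79b (5.84 of 8.36 and 6.37 of 10.3 CPM), so the BM Gr-1lo ratios of all 3 genes depend on that gene.

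**Figure D3:**
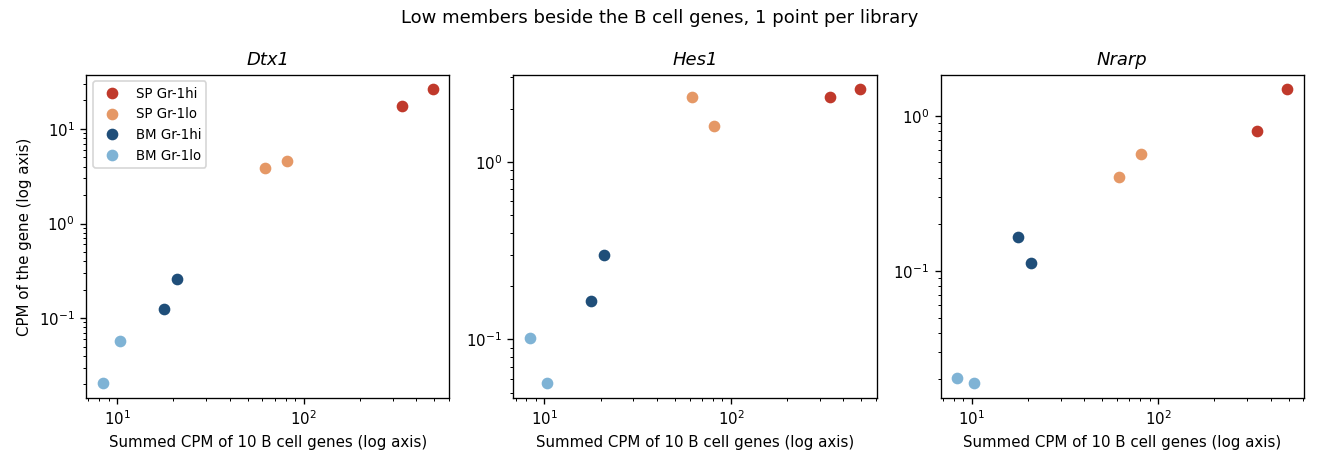
CPM of Dtx1, Hes1 and Nrarp (y axis) against the summed CPM of 10 B cell genes (x axis), both on log axes, with 1 point per library coloured by group. The libraries fall in the same order by Dtx1 and by the B cell sum, and Hes1 lies at 1.599 to 2.56 CPM in SP libraries whose B cell sums run from 61.9 to 492.

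Other lists were mixed, beside the shares of all genes called higher in SP (14.0% in Gr-1hi and 3.84% in Gr-1lo cells). Called higher in SP Gr-1hi over BM Gr-1hi cells were 5 of the 5 plasma cell genes tested (summed CPM 81.9 to 142 against 9.54 to 10.9; Tnfrsf17, at or near 0, was not tested), 4 of 5 marginal zone B cell genes (310.5 to 345 against 420.4 to 428), 5 of 6 erythroid genes (119 to 407 against 20.8 to 24.4), 5 of 7 splenic macrophage genes (796 to 946 against 501 to 552), 4 of 5 NK cell genes (12.3 to 18.0 against 2.64 to 3.48) and 3 of 7 dendritic cell genes (95.1 to 96.7 against 26.7 to 40.6), of which 1 more was called lower. Of 6 endothelial and stromal genes tested 0 were called higher and 1 lower (38.7 to 46.4 against 34.4 to 36.5). In Gr-1lo cells the counts called higher were 4 of 5, 2 of 5 (with 1 lower), 4 of 6, 5 of 7, 2 of 5, 2 of 7 and 0 of 6 (with 1 lower) in the same order. The summed CPM there, SP against BM, were 54.6 to 72.6 against 14.9 to 15.3 for plasma cells, 53.5 to 60.4 against 37.1 to 49.7 for the marginal zone list, 92.7 to 128 against 4.77 to 4.84 for erythroid cells, 97.5 to 99.4 against 64.8 to 77.5 for splenic macrophages, 24.5 to 31.9 against 34.9 to 37.7 for NK cells, 18.3 to 22.4 against 5.52 to 9.22 for dendritic cells and 25.4 to 28.3 against 25.4 to 39.3 for endothelial and stromal cells. The NK sum was thus lower in SP Gr-1lo cells, most of it from Nkg7 (28.3 and 20.2 CPM in SP against 37.4 and 34.3 CPM in BM). Ncr1, Klrb1c, Gzma and Eomes were each higher in both SP Gr-1lo libraries than in either BM Gr-1lo library. The sum of the marginal zone list was lower in SP Gr-1hi cells, most of it from Cd9 (225 to 424 CPM in the Gr-1hi libraries), which myeloid cells express too, whereas Cr2, the complement receptor of B cells, was at 32.3 to 57.8 CPM in SP Gr-1hi and 0.0413 to 0.449 CPM in BM Gr-1hi libraries. The part of these lists in the differences of Dtx1, Hes1 and Nrarp was not tested either.

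The profiles most like each member's were found by the root mean square difference of centred log2(CPM + 0.05) over the 8 libraries, a description over libraries that share tissue and subset. For Dtx1 the nearest were Il9r (0.535), Ms4a1 (0.556) and Cd22 (0.568), of which Ms4a1 and Cd22 are B cell surface proteins. For Hes1 they were Nr1h3 (0.401), Igkv4-61 (0.413) and St8sia6 (0.438), and for Nrarp Il2rb (0.205), Clcf1 (0.289) and Tnik (0.348). Nr1h3 encodes the sterol receptor LXR alpha of macrophages, and Il2rb a receptor chain of T and NK cells. The abundant members had far closer neighbours, such as Fam160b1 for Notch1 (0.0563) and Tnrc6a for Notch2 (0.0594). Neighbours were sought only among genes with a mean of at least 1 CPM, and symbols of Gm with a number or ending in Rik were left out. The distances of Dtx1, Hes1 and Nrarp include BM values of 1 to 8 counts a library, so counting error adds to them.

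Of 46 other genes of the pathway, 37 had enough counts to be tested. The 9 that did not were the receptor Notch3, the ligands Dll1, Dll3 and Dll4, the ubiquitin ligase Neurl1a and the target genes Hes5, Hey1, Hey2 and Heyl, so no other HES or HEY gene could be set beside Hes1. Dll1, a ligand, had 28 and 10 counts in SP Gr-1hi, 7 and 5 in SP Gr-1lo and at most 2 in each BM library.

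Between SP and BM Gr-1hi cells 5 of the 37 were called, against 15.5% of all genes (14.0% higher and 1.48% lower). The coactivator Maml2 was higher in SP by a log2 FC of 3.19 (SE 0.41, adjusted p = 0.00101), the Deltex relative Dtx3 by 1.81 (SE 0.16), the fringe enzyme Mfng, which adds sugar to Notch receptors, by 1.75 (SE 0.17) and Poglut1, which glucosylates them, by 1.15 (SE 0.25). Aph1b, a subunit of gamma-secretase, was lower in SP (log2 FC -1.03, SE 0.17, adjusted p = 0.00325). Without library 5, or without 5 and 7, Poglut1 and Aph1b were no longer called, and without library 6 the count was 10, with Dll1, Dtx3l, Jag1, Lfng and Mib2 added. In Gr-1lo cells edgeR called 0 of the 37 between SP and BM, against 4.06% of all genes, as did DESeq2 and limma. There 8 had an unadjusted p under 0.05, and 2 an adjusted p of at most 0.05 with FC under 2: the ubiquitin ligase gene Neurl3 (log2 0.78, adjusted p = 0.00251) and the fringe enzyme Lfng (log2 0.82, adjusted p = 0.0412).

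The SP against BM difference of the same 5 genes differed between Gr-1hi and Gr-1lo cells, by a log2 value of 2.60 (SE 0.51, adjusted p = 0.0141) for Maml2 and 1.79 (SE 0.21, adjusted p = 0.00288) for Dtx3, against 9.74% of all genes called. Without libraries 5 and 7 only Mfng and Dtx3 kept that call, and with a library left out the count of 5 was 3 to 8 (3 without library 5, 7, 8 or 12, and 8 without library 6). Maml2, whose call was thus lost without libraries 5 and 7, was at 3.97 ± 1.29 CPM (SD, n = 2) in SP Gr-1hi and 5.47 ± 0.92 CPM in SP Gr-1lo cells, but at 0.44 ± 0.25 CPM in BM Gr-1hi and 3.64 ± 0.43 CPM in BM Gr-1lo cells. Dtx3 was at 7.45 ± 1.10 and 19.7 ± 0.88 CPM in SP Gr-1hi and Gr-1lo cells, and at 2.12 ± 0.018 and 19.4 ± 1.64 CPM in those of BM. BM Gr-1hi cells had the lowest mean of both genes, and Dtx3 was lower in SP Gr-1hi than in SP Gr-1lo cells as well. Of 6 monocyte genes, 1 was called higher (14.0% of all genes) and 0 lower (1.48%) in SP Gr-1hi over BM Gr-1hi cells, and their summed CPM was 992 to 1119 in SP Gr-1hi and 1320 to 1740 in BM Gr-1hi libraries. Most of that sum was Ly6c2 (585 and 830.4 CPM against 1133 and 1516 CPM), while Csf1r was at 375 and 264 CPM in SP against 175 and 133 CPM in BM. Cx3cr1 was also higher in SP (10.6 and 6.06 against 2.24 and 4.58 CPM). Ccr2, Fn1 and F13a1 split the BM Gr-1hi libraries, at 38.6, 31.2 and 17.4 CPM in library 10 and 6.73, 1.12 and 1.83 CPM in library 9. Library 10 was above both SP Gr-1hi libraries for each of them. The part of the 6 genes in the differences of Maml2 and Dtx3 was not tested.

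By subset, 18 of the 37 were called in BM (12 higher and 6 lower in Gr-1hi cells, against 57.3% of all genes) and 16 in SP (12 higher and 4 lower, against 49.6%). On the log2 scale the ligand Jag1 was higher in Gr-1hi cells by 3.68 (BM) and 2.48 (SP), Aph1b by 3.51 and 2.43, Numb, an endocytic inhibitor of Notch receptors, by 2.93 and 2.40, and Neurl3, which belongs to the Neuralized family, by 2.80 and 2.24. Notch4, the only other receptor tested, was higher in Gr-1hi cells as well (2.18 in BM and 1.23 in SP). Lower in Gr-1hi cells were, among others, Poglut1 (-3.46 in BM and -2.26 in SP) and Dtx3 (-3.20 and -1.40), each called in both tissues. Maml2 was lower in BM (-3.06). Receptors and the ligand Jag1 were therefore on the Gr-1hi side, with Notch1 and Notch2. The sugar-adding enzymes did not move together, as Lfng was higher (1.34 and 1.46) where Poglut1 was lower.

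**Figure D4:**
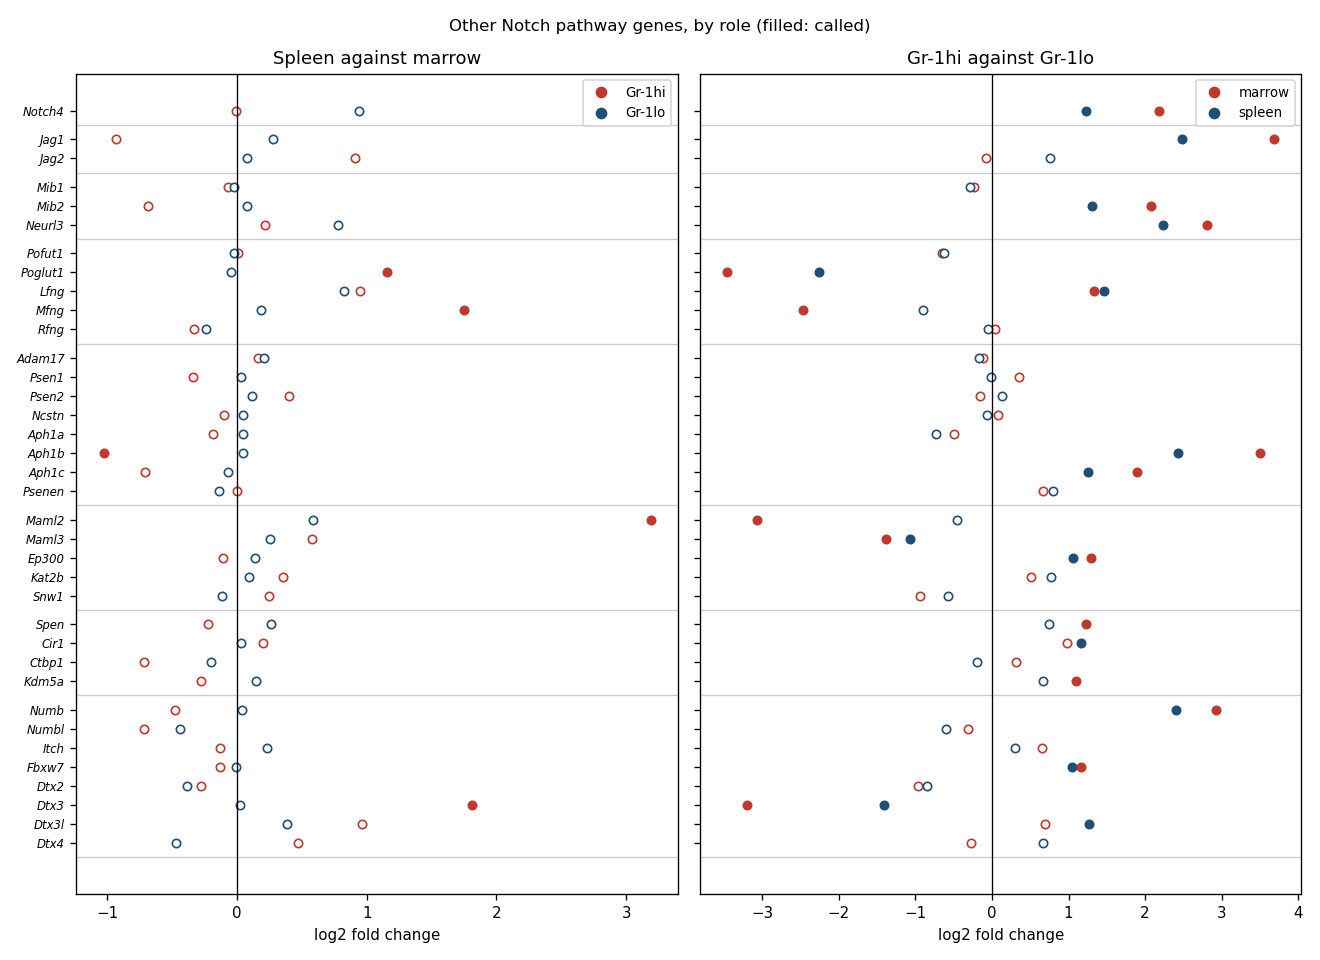
Log2 FC (x axis) of the other pathway genes tested, save 1 that is not reported here, grouped by role from receptors at the top to turnover of the receptor at the bottom, for SP against BM (left) and Gr-1hi against Gr-1lo (right), filled where called. On the left only Maml2, Dtx3, Mfng, Poglut1 and Aph1b are filled, all in Gr-1hi cells.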

How the data were processed

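RNA was sequenced from 8 libraries in 4 groups (2 each), as labelled. Per the labels, libraries were made with a stranded mRNA kit. The authors aligned reads to GRCm38.p6 with STAR 2.5.3a and counted them per gene with featureCounts (Subread 1.6.4, GENCODE M24), which gave the deposited whole-number counts, after FastQC 0.11.8 and Sickle 1.33. The strand setting of the counting is not given in the sources used here. Tests used edgeR 4.0.16 (R 4.3.3): filterByExpr left 17650 of 54188 genes, libraries were scaled by TMM, and all 8 libraries entered a robust quasi-likelihood model of the 4 groups with 4 residual degrees of freedom. The script was tested on simulated data. Adjustment of p followed Benjamini and Hochberg over all genes tested, and SE is the log2 FC divided by the root of F. CPM are TMM-normalized, and TPM used exon lengths of GENCODE M21. Positions are those of GENCODE on GRCm38. Count ratios carry 95% exact binomial intervals. Alternatives were RLE and upper-quartile scaling, no filter, DESeq2 1.42.0, limma 3.58.1 on log2(quantile-normalized TPM + 1), the 4 libraries compared alone, each library left out, and libraries 5 and 7 left out. A log2 FC against few counts depends on the prior count of edgeR.

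The members, the 46 other pathway genes, the marker lists and the rules were chosen with earlier results of these data known. Named were all 8 members, of the other genes those called (the 6 of largest absolute log2 FC with at least 1 CPM in a comparison come first), the 3 nearest profiles of members called, and the marker genes used as checks. Notch4, Lfng, Dll1, Neurl3 in Gr-1lo cells and the genes with the RBPJ motif were added after their values were seen. Some genes that these rules would name are not reported here, although counts and sums over lists include them.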

Additional observations from a re-analysis of the deposited data

Results flagged for a closer look

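Of the 37 other pathway genes tested, 5 passed the 2-fold rule for a difference between SP and BM that was not the same in Gr-1hi as in Gr-1lo cells (9.74% of all genes passed it), by the interaction term of the edgeR model, and of the members 0. By adjusted p alone these were 12 genes and 1 member, Maml1 (16.4% of all genes). On the log2 scale the difference of the subsets in SP minus that in BM was -0.44 for Maml1 (adjusted p = 0.0472, under 2-fold), 1.198 for Poglut1 (adjusted p = 0.0387), 1.57 for Mfng (adjusted p = 0.0044), -1.08 for Aph1b (adjusted p = 0.0227), 2.60 for Maml2 (adjusted p = 0.0141) and 1.79 for Dtx3 (adjusted p = 0.00288). Without libraries 5 and 7, only Mfng and Dtx3 of the 5 that passed the 2-fold rule were still called, and Maml1 had an adjusted p of 0.225.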

How the results depend on the processing

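All SP against BM calls of Dtx1 and Hes1 held in 15 alternatives each, with log2 FC of 3.40 to 7.36 and 1.39 to 7.51 for Dtx1 and of 1.63 to 3.79 and 1.41 to 5.03 for Hes1 in Gr-1hi and Gr-1lo cells, the lowest of them from limma on log2(TPM + 1). Nrarp held in Gr-1hi cells in the 14 alternatives that tested it. Nrarp was too low for the limma filter. Dtx1, Hes1 and Nrarp passed the filter on low counts through their SP libraries only, so the calls that held are given as a description.

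Counts of members called moved as follows. Between SP and BM Gr-1hi cells adjusted p alone gave 6. Between BM subsets limma gave 2, the 4 libraries alone 3, and leaving out a library 3 (without library 11) to 6. Between SP subsets limma gave 2. The interaction gave 1 by limma (Dtx1, log2 2.01) and 1 by adjusted p alone (Maml1). Of the other pathway genes, SP against BM Gr-1hi gave 2 by limma, 3 without libraries 5 and 7, 17 by adjusted p alone and 3 (without library 5) to 10 (without library 6) with a library left out. SP against BM Gr-1lo gave 2, BM subsets 30 and SP subsets 29 by adjusted p alone. The interaction gave 1 by limma, 2 without libraries 5 and 7, 12 by adjusted p alone and 3 to 8 with a library left out (3 without library 5, 7, 8 or 12, and 8 without library 6). Notch2 fell under 2-fold between subsets by limma (0.89 in BM and 0.88 in SP). The cause of these moves was not tested, beyond the fewer genes that limma and the 4-library fit tested.

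Reversed signs were of log2 values that edgeR did not call, and under the reversing alternatives none was called. They were Notch1 in SP against BM Gr-1lo (0.0159 with upper-quartile scaling, 0.0246 with no filter, 0.00471 with 4 libraries), Notch2 in SP against BM Gr-1hi (-0.0592 with RLE, -0.0535 by DESeq2, -0.128 without libraries 5 and 7, and -0.224 to 0.0785 with a library left out, negative without 5 or 10), the Dtx1 interaction (-0.297 without libraries 5 and 7, and -0.735 to 0.674 with a library left out, negative without 5, 7, 10 or 12), the Hes1 interaction (0.219 by limma), Adam10 in SP against BM Gr-1lo (0.0118 with upper-quartile scaling, 0.0205 with no filter, 0.000857 with 4 libraries, and -0.0583 to 0.0137 with a library left out, positive without 8 or 11), Adam10 between BM subsets (0.0361 with RLE) and the Adam10 interaction (0.0172 by limma). The cause was not tested. The median log2 FC of all genes between BM subsets was -0.17 with TMM and -0.03 with RLE, so values there are relative to that shift.

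No paired analysis was possible because the labels give each library a number of its own, 5 to 12, that no 2 groups share. Leaving out 1 library leaves its group with a single library, which is assumed to vary like the other groups. Depth limits the BM values of Dtx1, Hes1 and Nrarp, which rest on 1 to 8 counts a library.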
